A study of Mus musculus with 6 samples.

Results

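The leukocyte tetraspanins are 7 genes, Cd9, Cd37, Cd53, Cd63, Cd81, Cd82 and Cd151, that were chosen by name from the 21761 genes of the deposited expression table, each of them matching 1 row. Their transcripts were followed by RNA-seq in bone marrow cells of male C57BL/6J mice grown ex vivo with Flt3L (Flt3 ligand), a growth factor on which dendritic cell development depends. The 6 libraries formed 3 groups of 2. The day 0 group (replicates II and III) was marrow without culture, the day 4 group (replicates I and II) carried the cell type label common myeloid progenitor (CMP), and the day 7 group (replicates III and IV) the label bone marrow-derived dendritic cell (BMDC). Flt3L came as supernatant of a transfected SP2/0 line, a mouse myeloma line. The day 4 and day 7 labels state that all live cells of the culture were taken, so no sort for a cell type separated them. The labels do not state whether the replicates are separate animals or separate cultures, and a p-value here reflects no more than the spread of the libraries, which may be technical.

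Tetraspanins are small membrane proteins that hold partner receptors, integrins and proteases together in microdomains of the plasma membrane and of endosomes. Cd9, Cd63 and Cd81 are the classical tetraspanins of exosomes, the vesicles released when multivesicular endosomes fuse with the cell surface. Cd37 and Cd53 are largely restricted to leukocytes, whereas Cd82 and Cd151 are also found in many epithelial and endothelial cells.

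The libraries differed in depth by day, and their values follow in replicate order. Reads in genes were 322837 and 157797 on day 0, 1365635 and 3852628 on day 4, and 16149088 and 10951745 on day 7. These numbers of reads were read back from the deposited RPKM (reads scaled by exon length and by the total of the library). As a measure of background, the 1452 sensory receptor genes (odorant, trace amine and vomeronasal), which marrow cells are not known to use, were pooled. Their level was 8.69 and 8.27 RPKM on day 0, 4.32 and 0.844 on day 4, and 0.0218 and 0.0236 on day 7. All 7 tetraspanins lay above this level in 4 libraries, and in day 0 replicate III and day 4 replicate I all but Cd151 did. Members at more than 2 times that level numbered 5 and 6 on day 0, 6 and 7 on day 4 (in replicate order), and 7 in each day 7 library.

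Marker genes of cell types differed widely between the days of culture. Summed levels of 12 neutrophil genes came to 64078 and 8056 RPKM on day 0, 47371 and 34599 on day 4, and 196 and 206 on day 7, in replicate order. Those of 13 macrophage genes came to 89.7 and 105.9 RPKM on day 0, 220.4 and 123.8 on day 4, and 7489 and 8210 on day 7. From day 4 to day 7, 12 of the 12 neutrophil genes were called lower and 10 of the 13 macrophage genes higher (limma, adjusted p under 0.05), with Vsig4 at 0 in both day 7 libraries and Mpo and Cebpe, of the neutrophil list, at 0 there as well. The 10 erythroid genes summed to 32092 and 20157 RPKM on day 0, 1708 and 1866 on day 4, and 26.7 and 26.8 on day 7. In the libraries labelled CMP, the 11 myeloid progenitor genes summed to 423 and 492 RPKM, against 797 and 258 RPKM at day 0, with the receptor gene Kit at 8.34 and 18.1 RPKM. Fcgr3 alone made 191 and 179 RPKM of these day 4 sums. On day 7 the same list summed to 323 and 377 RPKM, of which Fcgr3 made 285 and 298 RPKM. In the libraries labelled BMDC, the 12 conventional dendritic cell genes summed to 365 and 377 RPKM, against 531 and 586 RPKM on day 0. Cd24a, which red cell precursors also carry, made 442 and 443 RPKM of the day 0 sums and 1.81 and 0.35 RPKM of those of day 7, and the other 11 genes summed to 89.3 and 142 RPKM on day 0 and to 363 and 377 RPKM on day 7. Sirpa, Itgax and Irf8 were called higher at day 7 than at day 0, and Flt3, Zbtb46, Xcr1 and Cd24a lower (limma, adjusted p under 0.05), with Sirpa at 274 and 272 RPKM on day 7. There the 10 plasmacytoid dendritic cell genes summed to 727 and 827 RPKM, of which Bst2 made 613 and 714 RPKM. Flt3 was at 1.22 and 1.97 RPKM there, and Zbtb46, a transcription factor of conventional dendritic cells, at 0.0288 and 0.0283 RPKM. Sums of the other lists at days 0, 4 and 7, in replicate order, were 169 and 98.3, 562 and 933, and 1.41 and 0.30 RPKM for 10 basophil and mast cell genes, with Hdc, Mcpt8 and Ms4a2 at 0 in both day 7 libraries. They were 51.0 and 86.2, 52.3 and 484, and 261 and 219 RPKM for 12 megakaryocyte and platelet genes, whose cells also carry Cd9 and Cd63. B lineage genes, 11 in all, summed to between 52.8 and 96.3 RPKM in every library, 12 T and NK cell genes to 137 and 88.9 RPKM on day 0 and to 2.13 and 1.73 RPKM on day 7, 8 eosinophil genes ranged from 3.06 to 792 RPKM, and 12 stromal and endothelial genes from 17.4 to 149.6 RPKM. The part of these shifts in the tetraspanin values was not tested, and in bulk RNA fewer cells of a type and less RNA per cell cannot be told apart.

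The promoters of 4 members that were called higher at day 7 than at day 0 are shown. The motif letters were chosen after the sequences were read. Cd37 and Cd53, the leukocyte-restricted members, share the 8 letters GAGGAAGT, which hold the core that ETS factors such as PU.1 bind. GC boxes (GGGCGG) are found in Cd9 and also in Cd37. Cd63 has neither motif in full, but it holds GAGGAAG, which lacks only the last letter, on the opposite strand. This shorter form was not counted in the windows of other genes, so no share over all genes stands beside it. Each sequence runs 5′ to 3′ along the gene from 150 bases before to 30 bases after the RefSeq start, in build GRCm38.p6, at chr7:45238810-45238989 (minus strand) for Cd37, chr3:106790120-106790299 (minus strand) for Cd53, chr6:125494731-125494910 (minus strand) for Cd9 and chr10:128909195-128909374 (plus strand) for Cd63. Capitals mark the matches, and ACTTCCTC is GAGGAAGT read on the opposite strand.
Cd37: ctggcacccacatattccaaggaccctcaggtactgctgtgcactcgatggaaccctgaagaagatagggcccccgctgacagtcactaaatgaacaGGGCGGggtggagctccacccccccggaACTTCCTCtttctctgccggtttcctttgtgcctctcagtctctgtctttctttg
Cd53: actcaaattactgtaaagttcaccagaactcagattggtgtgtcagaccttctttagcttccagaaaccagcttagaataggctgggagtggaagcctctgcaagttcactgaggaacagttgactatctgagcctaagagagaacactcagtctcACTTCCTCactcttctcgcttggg
Cd9: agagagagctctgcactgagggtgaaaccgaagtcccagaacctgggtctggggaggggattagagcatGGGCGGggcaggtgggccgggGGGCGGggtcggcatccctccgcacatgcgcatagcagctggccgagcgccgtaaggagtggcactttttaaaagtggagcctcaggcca
Cd63: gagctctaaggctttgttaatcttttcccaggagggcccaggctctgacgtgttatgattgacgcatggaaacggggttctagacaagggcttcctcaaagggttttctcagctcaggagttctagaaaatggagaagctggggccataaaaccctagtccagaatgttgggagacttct
All 7 members had at least 1 RefSeq window, 11 windows in all, which were searched over 300 bases (250 before to 50 after the start) on both strands. GAGGAAGT was found in the windows of Cd37 and Cd53 and in 1 of 4 windows of Cd82, and in 3.20% of the 32851 windows of all genes. GGGCGG was found in Cd9, Cd37, Cd81, 2 of 4 windows of Cd82 and 1 of 2 windows of Cd151, and in 35.7% of all windows. The letters TATAAA were found in Cd81 alone among the members, and in 13.6% of all windows. The motifs do not overlap each other in these windows, and a match is a description of the letters, not of a factor bound there.

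Cd9 and Cd63, the tetraspanins of the cell surface and of late endosomes and granules, were the most abundant members in culture and were both far higher at days 4 and 7 than in fresh marrow. Cd9, which takes part in adhesion, migration and control of cell fusion, was at 132.5 and 74.4 RPKM on day 0 (replicates II and III), 894 and 1137 RPKM on day 4 (I and II), and 1697 and 1438 RPKM on day 7 (III and IV). No library of a later day overlapped with one of an earlier day. On the log2(RPKM + 1) scale Cd9 rose by 3.33 ± 0.577 (SE) from day 0 to day 4 (limma, adjusted p = 0.0209) and was 3.96 ± 0.577 higher at day 7 than at day 0 (adjusted p = 0.00326). The difference of 0.63 between days 7 and 4 did not pass the test (adjusted p = 0.434), with a 95% interval from -0.69 to 1.96. The call at day 4 against day 0 did not hold when a day 4 or day 7 library was left out. The difference was 3.50 and 3.16 without day 4 replicate I and II, and stayed at 3.33 without a day 7 library. Such fits leave 1 library in a group, and calls over all genes fell or vanished in them as well. This applies to the members below too. The call of Cd9 at day 7 against day 0 held under every alternative run.

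Cd63, which sorts cargo in late endosomes and marks azurophil and platelet granules, measured 173.9 and 30.7 RPKM on day 0, 778 and 1129 on day 4, and 2104 and 2058 on day 7, in the same order of libraries. The day 0 libraries stood 5.67-fold apart, and the lower, replicate III, held 5 reads of Cd63. Even so, the days did not overlap. Cd63 rose by 3.66 ± 0.815 from day 0 to day 4 (limma, adjusted p = 0.0428) and was 4.81 ± 0.815 higher at day 7 than at day 0 (adjusted p = 0.00589). The step from day 4 to day 7 measured 1.15 (adjusted p = 0.342), with an interval from -0.72 to 3.02. Without day 0 replicate II or III this step stayed at 1.15, because day 0 is no part of it. Only the estimate of spread, which the days share, changed there. The call at day 4 against day 0 held in 5 of 17 alternatives. It did not hold without a day 4 library, or without a day 7 library, where the difference itself stayed at 3.66. At day 7 Cd63 ranked 20 and 23 among all genes by RPKM, and Cd9 32 and 48.

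**Figure D1:**
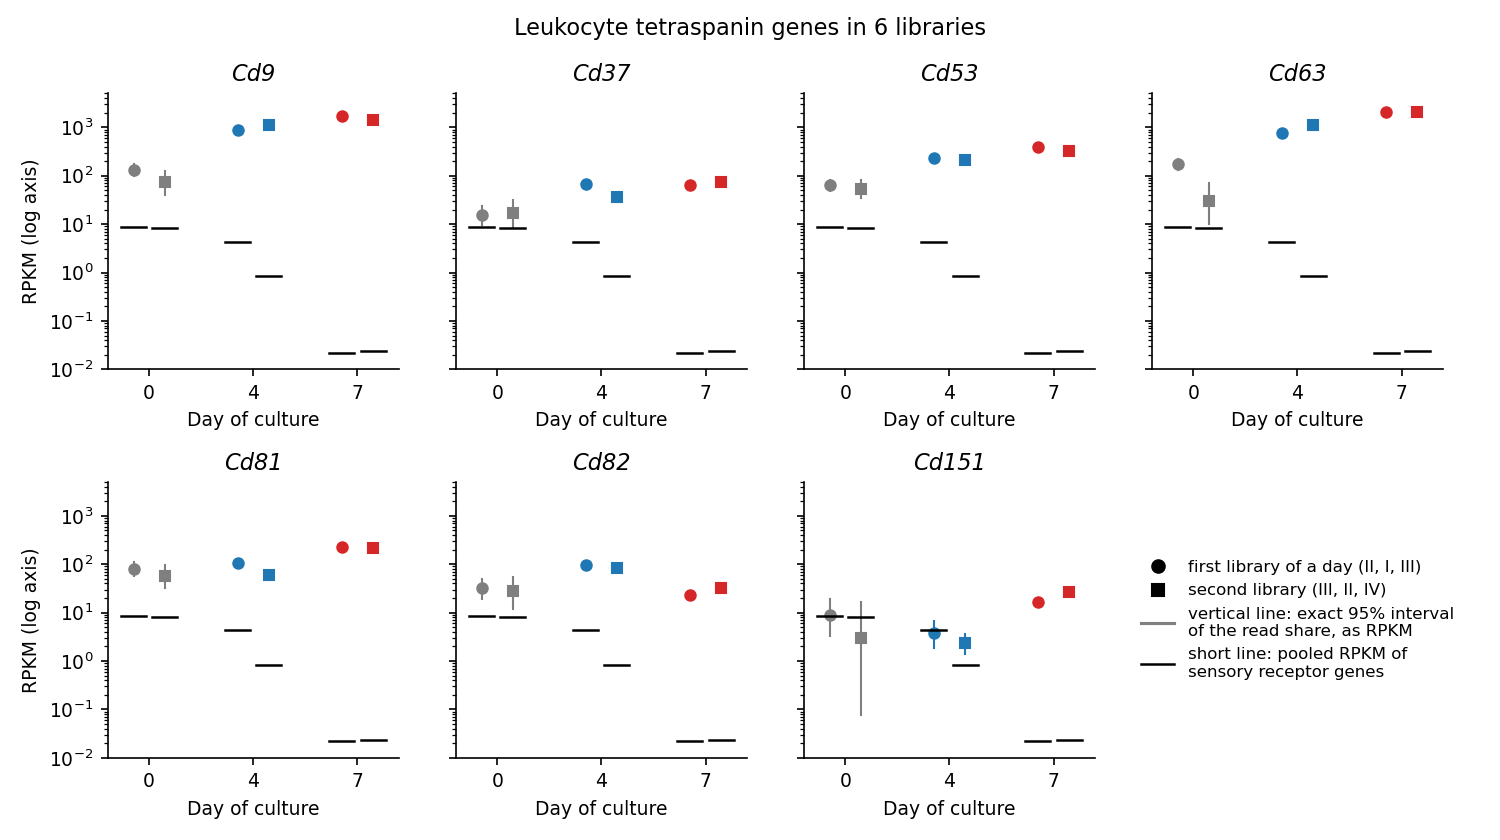
RPKM of each tetraspanin (log axis) in the 6 libraries by day of culture, with the exact 95% interval of the read share as a vertical line and the pooled level of sensory receptor genes as a short black line. Cd9, Cd53 and Cd63 lie higher at each later day without overlap, Cd82 is highest at day 4 at 83.9 and 95.6 RPKM, and Cd151 lies near or under the black line in the day 0 libraries and in day 4 replicate I.

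The leukocyte-restricted members Cd53 and Cd37 were also higher at day 7 than in fresh marrow, and Cd53 at day 4 as well. Cd53, which steadies the phosphatase Ptprc at the leukocyte surface, measured 64.1 and 54.3 RPKM on day 0, 234.7 and 210.003 on day 4, and 392 and 330.01 on day 7. Its libraries agreed closely within each day, and no days overlapped. It rose by 1.89 ± 0.408 on the log2 scale from day 0 to day 4 (limma, adjusted p = 0.0383) and by 2.59 ± 0.408 from day 0 to day 7 (adjusted p = 0.00448), and the step between days 4 and 7 measured 0.69 (adjusted p = 0.276; interval from -0.24 to 1.63). The call at day 4 did not hold without a day 4 library, or without a day 7 library, where the difference itself stayed at 1.89. The call at day 7 against day 0 did not hold without day 7 replicate III, with a difference of 2.46. The call at day 4 held in 6 of 17 alternatives, and quantile normalization took the value at day 7 against day 0 to 1.04 (adjusted p = 0.101).

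Cd37, which restrains antigen-presenting cell functions and binds the fungal receptor Clec7a, measured 15.4 and 17.3 RPKM on day 0, 66.8 and 36.6 on day 4, and 63.5 and 72.6 on day 7. Day 0 lay apart from both later days, which overlapped each other. The difference of 1.55 ± 0.404 between days 4 and 0 did not pass the test (limma, adjusted p = 0.0633), with an interval from 0.62 to 2.47, whereas Cd37 was 1.99 ± 0.404 higher at day 7 than at day 0 (adjusted p = 0.0107). With the sensory receptor level taken off each library, an alternative chosen after seeing the data, the day 0 values became 6.67 and 9.02 RPKM and the day 4 difference 2.46 (adjusted p = 0.0176). The call at day 7 against day 0 ended without day 7 replicate III or IV (adjusted p = 0.0627 and 0.0907) and under quantile normalization, where the value was 1.3 (adjusted p = 0.109). Days 7 and 4 differed by 0.45 (adjusted p = 0.429; interval from -0.48 to 1.37).

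Cd81, the partner of the immunoglobulin-family protein Igsf8 on many cells, differed from Cd9 and Cd63 in its course. It measured 79.6 and 58.4 RPKM on day 0, 103.7 and 61.2 on day 4, and 226 and 220.5 on day 7. The day 0 and day 4 libraries overlapped, and both day 7 libraries lay above all others. Cd81 was 1.70 ± 0.426 higher at day 7 than at day 0 on the log2 scale (limma, adjusted p = 0.0201), a call that ended without day 7 replicate III or IV (adjusted p = 0.132 and 0.139) and under quantile normalization, where the value was 0.20 (adjusted p = 0.772). The difference of 1.47 ± 0.426 between days 7 and 4 had an adjusted p of 0.0586 and passed in 8 of 17 alternatives. Among these were the fits without a day 0 library, where the difference stayed at 1.47 because day 0 is no part of it. Between days 4 and 0 the difference was 0.22 (adjusted p = 0.784), with an interval from -0.76 to 1.2.

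Cd82, a tetraspanin known as a suppressor of metastasis and of stem cell cycling, was the member with a peak at day 4. It measured 31.7 and 27.3 RPKM on day 0, 95.6 and 83.9 on day 4, and 23.3 and 31.5 on day 7. Day 4 lay apart from both other days, which overlapped each other. Cd82 rose by 1.57 ± 0.362 from day 0 to day 4 (limma, adjusted p = 0.0464) and fell by 1.69 ± 0.362 from day 4 to day 7 (adjusted p = 0.0206). Days 7 and 0 differed by -0.12 (adjusted p = 0.802), with an interval from -0.95 to 0.71. Neither call held when a day 4 or day 7 library was left out, though without a day 7 library the rise itself stayed at 1.57. The rise held in 4 and the fall in 10 of 17 alternatives, and the 2 steps share the day 4 libraries.

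Cd151, which binds laminin-binding integrins, was the lowest member at every day. It was at 8.78 and 2.99 RPKM at day 0, from 6 reads and 1 read, at 3.80 and 2.33 RPKM at day 4, from 11 and 19 reads, and at 16.5 and 26.3 RPKM at day 7, from 565 and 609 reads. Day 0 and day 4 values overlapped, both day 7 libraries lay above them, and the sensory receptor genes reached 8.69, 8.27, 4.32 and 0.844 RPKM in the day 0 and day 4 libraries. Cd151 was 2.45 ± 0.555 higher at day 7 than at day 4 (limma, adjusted p = 0.0253) and 1.81 ± 0.555 higher than at day 0 (adjusted p = 0.0346). Neither call held when a day 4 or day 7 library was left out, though without a day 4 library the difference to day 0 stayed at 1.81. The call against day 0 also ended without day 0 replicate III, with a difference of 1.16, and held in 7 of 17 alternatives. With the sensory receptor level taken off, Cd151 was at 0.0842 and 0 RPKM at day 0, and at 0 and 1.49 RPKM at day 4. Days 4 and 0 differed by -0.64 (adjusted p = 0.499; interval from -1.92 to 0.63).

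Counted together, the members called at an adjusted p under 0.05 (limma) were 4 higher and 0 lower at day 4 against day 0: Cd9, Cd53, Cd63 and Cd82. Of all 19279 genes tested, 3.66% were called higher and 1.92% lower in that comparison. Groups did not overlap for 5 members that were higher and 0 that were lower, against 17.9% and 33.3% of all genes. The median log2 fold change of the members was 1.57, beside -0.40 for all genes. With the sensory receptor level taken off each library, which left 10822 genes to test, the all-gene median turned to 1.07 and that of the members was 2.10, and 2621 genes were called higher and 277 lower in place of 705 and 370. The calls of members were lost with a weight per library, where no gene of all those tested was called. They were also lost when a day 4 or day 7 library was left out, where calls over all genes fell or vanished. All 4 members kept their direction in every alternative run.

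At day 7 against day 4, 1 member was called higher (Cd151) and 1 lower (Cd82), where 5.85% and 6.75% of all genes were called. Libraries did not overlap for 5 members that were higher, Cd9, Cd53, Cd63, Cd81 and Cd151, and for 1 that was lower, against 19.6% and 57.6% of all genes. The members' median was 0.69 and that of all genes -0.81. With the sensory receptor level taken off these were 0.71 and 0.49, and over all genes 1808 were called higher and 783 lower in place of 1127 and 1301. The calls of members were lost when a day 4 or day 7 library was left out, where calls over all genes also fell or vanished.

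At day 7 against day 0, 6 members were called higher, all but Cd82, and 0 lower, where 11.3% of all genes were called higher and 29.3% lower. The same 6 did not overlap between the groups, against 19.6% of all genes higher and 50.8% lower, with medians of 1.99 for the members and -1.14 for all genes. With the sensory receptor level taken off, the all-gene median turned to 1.68 beside 2.97 for the members, and the calls over all genes to 4733 higher and 487 lower. Under quantile normalization, which brought the all-gene median to -0.16 and the calls over all genes from 2183 higher and 5649 lower to 1245 higher and 1082 lower, 2 members were called. Fewer members were called when a day 7 library was left out, as were fewer of all genes. The 3 comparisons share libraries in pairs and are not independent of each other.

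**Figure D2:**
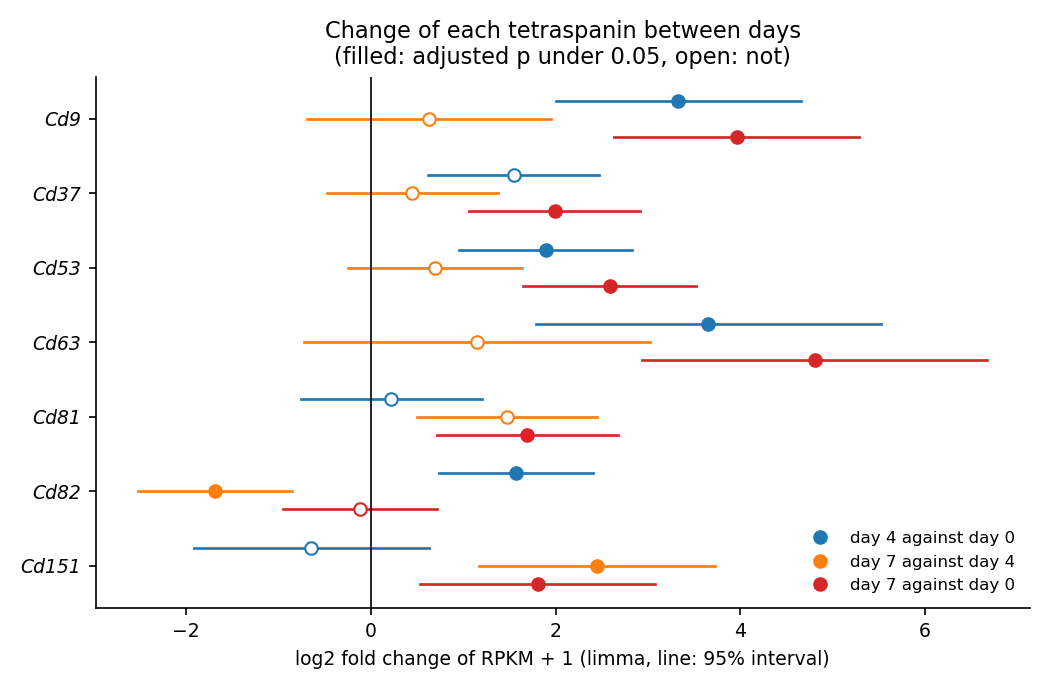
Log2 fold change of RPKM + 1 for each tetraspanin in the 3 comparisons between days (points, limma estimate; lines, 95% interval; filled points, adjusted p under 0.05). Cd82 lies at 1.57 for day 4 against day 0 and at -1.69 for day 7 against day 4, whereas Cd9 and Cd63 lie highest against day 0, at 3.33 to 4.81.

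The make-up of the 7 transcripts differed between the days. Their summed level was 506 and 265 RPKM on day 0, 2177 and 2660 on day 4, and 4523 and 4177 on day 7. Cd9 and Cd63 made 60.6% and 39.6% of that sum on day 0, 76.8% and 85.2% on day 4, and 84.0% and 83.7% on day 7, so that the day 0 libraries had the lowest shares. Within that pair, the ratio of Cd9 to Cd63 was 0.762 and 2.43 on day 0, 1.15 and 1.007 on day 4, and 0.807 and 0.699 on day 7. The ratio of Cd53 to Cd82 was 2.02 and 1.99 on day 0, 2.46 and 2.50 on day 4, and 16.9 and 10.5 on day 7, the highest ratios being those of day 7.

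In order of mean RPKM, which is per length, day 0 ran Cd9, Cd63, Cd81, Cd53, Cd82, Cd37 and Cd151, and neighbours among the leading 4 overlapped between libraries, while the later steps did not. Day 4 ran Cd9, Cd63, Cd53, Cd82, Cd81, Cd37 and Cd151: Cd9 overlapped with Cd63, and Cd81 with both Cd82 and Cd37. Day 7 ran Cd63, Cd9, Cd53, Cd81, Cd37, Cd82 and Cd151, and only Cd82 and Cd151 overlapped there among neighbours. Between days 4 and 7 Cd82 thus moved from the fourth place to the sixth.

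**Figure D3:**
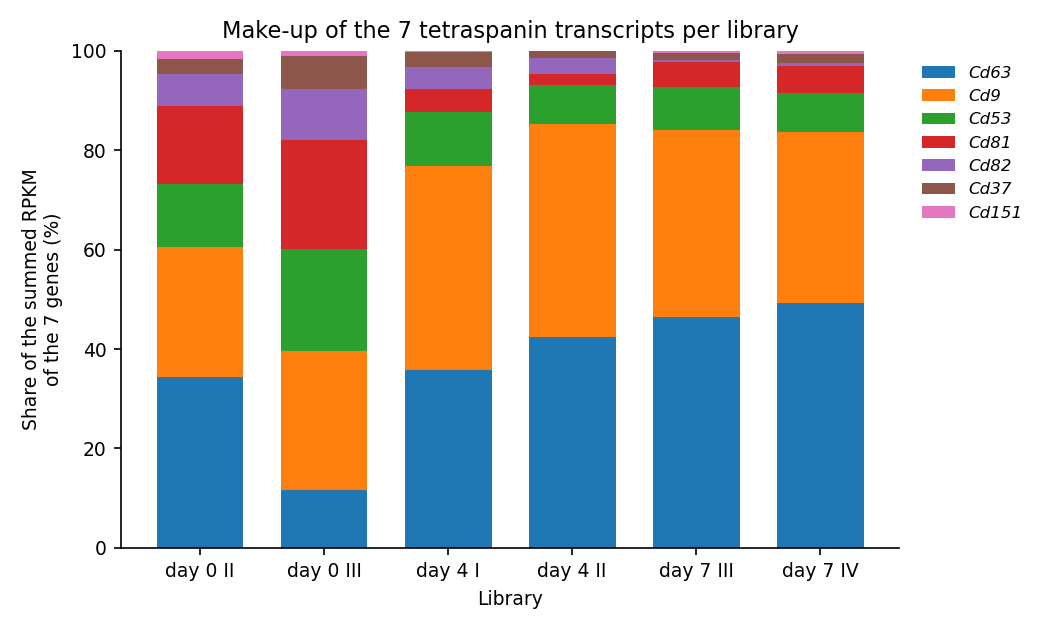
Share of each tetraspanin in the summed RPKM of the 7 genes (percent, bars from 0) in each library. Cd63 and Cd9 together make 39.6% to 60.6% at day 0 and 76.8% to 85.2% in the culture libraries, and Cd82 narrows to a thin band at day 7.

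As a description over the 6 libraries, which share the gap in depth between days, log2(RPKM + 1) of Cd9 followed that of Cd53 (Pearson r = 0.986) and Cd63 (r = 0.977), and Cd81 followed Cd151 (r = 0.899). Cd82 ran apart, with r = -0.389 to Cd81 and -0.614 to Cd151. The genes most like each member were, by the same measure, Lamtor1, Srsf5 and Ctsd for Cd9 (r = 0.998 to 0.997), Vps28, Ctage5 and Leprotl1 for Cd37 (0.993 to 0.984), and Ppig, Mrpl22 and Fcgr3 for Cd53 (0.996 to 0.995). They were Vimp, Tmem50a and Arl11 for Cd63 (0.999 to 0.998), Hadhb, Cd300a and Tnip1 for Cd81 (0.998 to 0.996), Slc27a4, Zfp869 and Nucb2 for Cd82 (0.994 to 0.991), and Anxa6, Ppp1r14b and Cox7b for Cd151 (0.993 to 0.988). Ctsd, a lysosomal protease, measured 136.9 and 64.6 RPKM on day 0, 1561 and 2363 on day 4, and 3967 and 4518 on day 7. Slc27a4, a fatty acid transporter, had the day 4 peak of Cd82, with 13.1 and 9.49, 120.4 and 107.8, and 8.10 and 18.04 RPKM.

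The 24 other tetraspanins of the table were mostly low. At more than 2 times the sensory receptor level there were 2 and 3 of them on day 0, 7 and 11 on day 4, and 17 in each day 7 library. That level itself was 8.69 and 8.27 RPKM on day 0 but 0.0218 and 0.0236 on day 7. The median of the 24 genes was 5.29 and 5.84 RPKM on day 0, 4.30 and 1.22 on day 4, and 0.631 and 0.646 on day 7. The counts thus do not show that more of these genes were expressed at day 7. In limma's test 1 was called higher and 1 lower at day 4 against day 0, 4 higher and 2 lower at day 7 against day 4, and 5 higher and 8 lower at day 7 against day 0, with medians of -0.53, -0.73 and -1.53 beside the all-gene medians of -0.40, -0.81 and -1.14. Of all genes, 3.66%, 5.85% and 11.3% were called higher and 1.92%, 6.75% and 29.3% lower in these comparisons. Tspan4, a tetraspanin of migrasomes, measured 6.03 and 12.35 RPKM on day 0, 4.28 and 7.25 on day 4, and 108.6 and 102.9 on day 7. Both day 7 libraries lay far above the others, and Tspan4 rose by 4.02 ± 0.447 from day 4 to day 7 (adjusted p = 0.00132). Tspan17, a partner of the protease Adam10, rose by 3.93 ± 0.423 in that step, Tspan3 by 2.75 ± 0.515 and Tspan13 by 1.89 ± 0.414 (adjusted p = 0.00115, 0.0120 and 0.0222). Tspan31 was at 12.04 and 16.4, 38.0 and 73.7, and 105.9 and 101.4 RPKM on the 3 days, and rose by 1.84 ± 0.424 from day 0 to day 4 (adjusted p = 0.0466).

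Some other tetraspanins were lower at day 7 than at an earlier day. Tspan33, also of the Adam10-binding group and known from red cell precursors and B cells, measured 31.2 and 66.9 RPKM on day 0, 5.27 and 1.99 on day 4, and 0.0594 and 0.482 on day 7, and fell by 3.43 ± 0.587 from day 0 to day 4 (limma, adjusted p = 0.0205). Its days did not overlap, and the summed level of the erythroid genes was also lowest at day 7. Tspan32, a leukocyte tetraspanin, measured 16.0 and 15.1 RPKM on day 0, 44.1 and 26.4 on day 4, and 7.76 and 1.45 on day 7. It fell by 2.93 ± 0.608 from day 4 to day 7 (adjusted p = 0.0182), and Tspan2 by 2.97 ± 0.557 (adjusted p = 0.0120). The other calls of a lower level at day 7 against day 0 were Tspan1, Tspan8, Tspan10, Tspan11 and Upk1b, none of which was above 13.63 RPKM in any library. Each had 2 to 5 reads in a day 0 library, where the sensory receptor level was 8.69 and 8.27 RPKM. A fall of these genes cannot be told apart from the fall of that background. Tspan14, among the 6 highest, had 18.4 and 52.8, 43.9 and 59.8, and 42.8 and 33.5 RPKM, and was not called in any comparison.

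**Figure D4:**
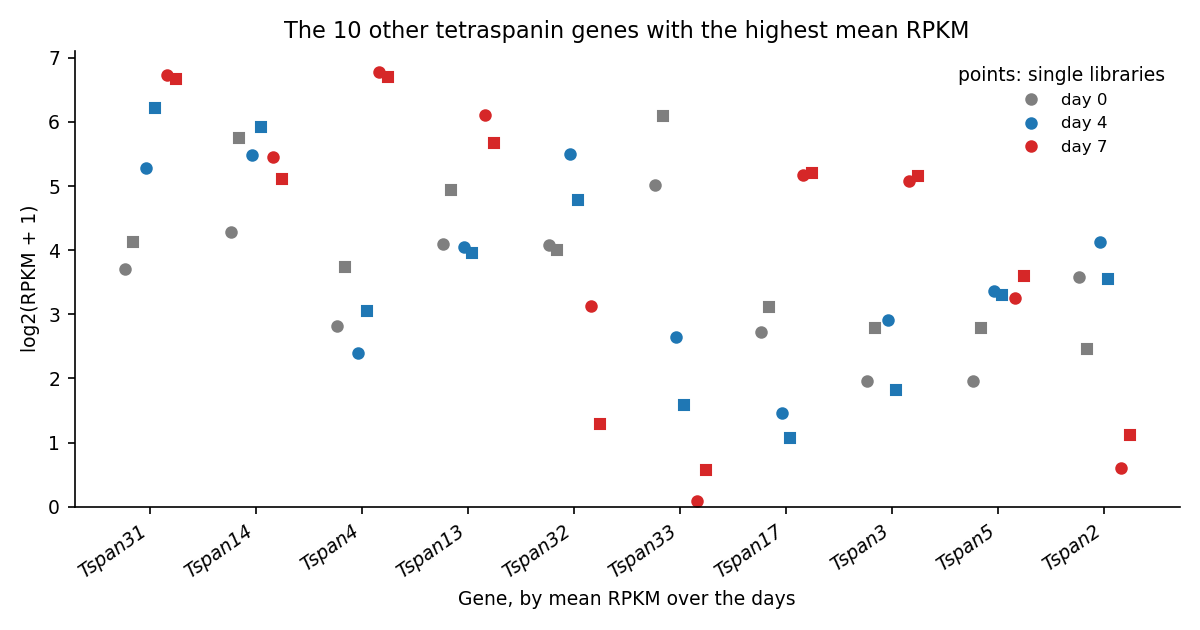
Level as log2(RPKM + 1) of the 10 other tetraspanin genes with the highest mean RPKM, with a point for each library by day (circles, the lower-numbered replicate of a day; squares, the higher). Tspan4, Tspan17 and Tspan3 lie highest at day 7, Tspan33 lies lower at each later day, and Tspan32 and Tspan2 lie lowest at day 7.

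Among 27 genes of proteins known to bind the members, 3 were called higher and 1 lower at day 4 against day 0, 6 and 6 at day 7 against day 4, and 7 and 10 at day 7 against day 0 (limma), with medians of -0.15, -0.45 and -0.40. The all-gene medians were -0.40, -0.81 and -1.14. Of all genes, 3.66%, 5.85% and 11.3% were called higher and 1.92%, 6.75% and 29.3% lower. Clec7a, the partner of Cd37, measured 10.9 and 19.5 RPKM on day 0, 43.8 and 21.2 on day 4, and 377 and 367 on day 7. Cd36, a scavenger receptor found with Cd9, was at 19.2 and 18.2, 6.99 and 6.45, and 475 and 437 RPKM. Both were highest at day 7 without overlap, and rose from day 4 by 3.56 ± 0.467 and 5.89 ± 0.342 (adjusted p = 0.00267 and 0.000149). Igsf8, named after its values were seen, was at 4.05 and 6.22, 7.43 and 8.15, and 51.5 and 63.1 RPKM, with both day 7 libraries above the others as for its partner Cd81, and rose by 2.72 ± 0.391 from day 4 (adjusted p = 0.00397).

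Ptprc, the leukocyte common antigen and a partner of Cd53, was at 44.0 and 68.8 RPKM on day 0, 199.5 and 199.7 on day 4, and 82.7 and 67.5 on day 7, with a rise by 1.84 ± 0.401 from day 0 to day 4 (limma, adjusted p = 0.0390). Ptafr rose by 3.44 ± 0.430 and Adam17, a shedding protease, by 2.23 ± 0.351 in the same step (adjusted p = 0.0105 and 0.0166). The difference of course between a member and its partner was not tested.

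Genes of the endosomal and exosome machinery numbered 23, of which 4 were called higher and 1 lower at day 4 against day 0, 2 and 2 at day 7 against day 4, and 9 and 3 at day 7 against day 0 (limma), with medians of 1.18, 0.02 and 1.06. The all-gene medians were -0.40, -0.81 and -1.14, and -0.03, -0.36 and -0.24 with a filter of 5 RPKM. Of all genes, 3.66%, 5.85% and 11.3% were called higher and 1.92%, 6.75% and 29.3% lower. Sdcbp, which encodes syntenin, the adaptor that binds the tail of Cd63, measured 60.0 and 74.7 RPKM on day 0, 136.6 and 194.5 on day 4, and 275 and 254 on day 7. Its days did not overlap, and it was 1.97 ± 0.414 higher at day 7 than at day 0 (adjusted p = 0.0121). Lamp1, which shares late endosomes and lysosomes with Cd63, was at 73.0 and 50.7, 44.1 and 180.8, and 746 and 867 RPKM, and rose by 3.15 ± 0.650 from day 4 to day 7 (adjusted p = 0.0176). The ESCRT gene Chmp4b differed by -1.77 ± 0.375 at day 4 against day 0 (limma, adjusted p = 0.0360). Its value in day 4 replicate I lay under the sensory receptor level of 4.32 RPKM there. It was at 13.5 and 17.2 RPKM on day 0, 3.98 and 3.53 on day 4, and 46.5 and 57.0 on day 7. Rab27a, which docks multivesicular endosomes and granules at the membrane, went the other way, with 19.3 and 21.3, 52.0 and 42.6, and 1.36 and 0.946 RPKM, and fell by 4.49 ± 0.383 from day 4 to day 7 (adjusted p = 0.000449). The adaptor genes Ap2m1 and Ap3s1 were at 61.8 RPKM or more in every library, and Hgs was at 32.3 and 32.8 RPKM at day 4, above its other 4 libraries, which reached at most 17.2 RPKM.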

How the data were processed

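RNA-seq was made from total RNA isolated on Qiagen RNeasy columns, with the SMARTer v3 Ultra Low Input RNA and the NexteraXT kit, per the labels' protocols. The deposited table holds RPKM per gene and library with Entrez IDs, symbols and exon lengths in bases, per the file headers. TopHat2 2.0.13, SAMtools 1.1 and the build mm9 are named without roles in the submitters' processing notes. The sources used here name no counter, gene annotation or strand handling, and without strand a gene and an overlapping antisense gene cannot be told apart. RPKM times length came out as whole reads for all values (largest distance from a whole read, 6.88e-05 reads), so that reads and totals were read back. For a 1 kb gene 1 read equalled 3.10 and 6.34 RPKM on day 0, and 0.0619 and 0.0913 on day 7. Exact Clopper-Pearson intervals at 95% cover counting error only. The table held 0 columns of other samples.

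Genes with at least 1 RPKM in at least 2 libraries were tested on log2(RPKM + 1), computed here from the deposited RPKM, a scale that understates the change of low genes. A model of 3 group means was fitted with limma 3.58.1 in R 4.3.3 (trended empirical Bayes, 3 residual degrees of freedom, median of 5.22 prior ones). Two-sided p-values were adjusted by the Benjamini-Hochberg method over all 19279 genes. With 2 libraries a group, exact permutation could not reach an adjusted p under 0.05. Alternatives were other pseudocounts, filters, scalings and weights, voom on the reads, thinning to 157797 reads, and leaving out each library.

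The members and the 15 lists (other tetraspanins, partners, endosome and exosome machinery, and 12 cell type lists) were chosen with earlier results of these data known. Of 208 entries 207 were found (not Ly6g). The naming rule allowed all members, the 6 highest other tetraspanins and any called, up to 4 genes by mean level and 2 by smallest adjusted p in each comparison for partners and machinery, up to 3 per cell type list, and 3 most like each member with a mean of at least 5 RPKM. Kit, Flt3, Zbtb46, Itgax, Xcr1, Igsf8 and the markers listed at 0 were named outside it, after their values were seen. Promoter sequences are RefSeq's for GRCm38.p6, another build than that of the table, and the motif letters were chosen after the sequences were read. Some listed genes are not reported here. Plots were drawn with matplotlib 3.10.9.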

Additional observations from a re-analysis of the deposited data

How the results depend on the processing

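Each value was computed again under 17 alternatives, 6 of which left out a library and 1 of which, taking off the sensory receptor level, was chosen after seeing the data. Members called higher at day 4 against day 0, 4 in the report, were 2 with a pseudocount of 0.1, without a filter or with voom on reads, 1 with median-ratio scaling, quantile normalization, no trend, thinning or only the days compared, 0 with a weight per library, and 0 to 4 when a library was left out. Members called higher at day 7 against day 4, 1 in the report, were 2 with a pseudocount of 0.1, a filter of 5 RPKM, a weight per library or only the days compared, 4 with voom, 0 with quantile normalization or no trend, and 0 to 3 when a library was left out. The 1 called lower became 0 with median-ratio scaling, no trend or thinning, and 0 to 1 when a library was left out. Members called higher at day 7 against day 0, 6 in the report, were 2 under quantile normalization and 2 to 6 when a library was left out. Values that changed sign had not passed the test: Cd81 at day 4 against day 0 became -0.52 under quantile normalization and -0.15 without day 4 replicate I, and Cd151 became 0.0023 without day 0 replicate II (-1.29 without replicate III) and 0.60 with the background taken off. At day 7 against day 4 quantile normalization gave -0.0076 for Cd37 and -0.21 for Cd53. Cd82 at day 7 against day 0 became 0.31 with median-ratio scaling, 0.094 without day 7 replicate III (-0.33 without replicate IV) and 0.35 with the background taken off. The cause was not tested. Over all genes, calls at day 4 against day 0 went from 1075 to 535 with a pseudocount of 0.1, 249 with no trend, 309 with voom, 1727 with thinning, 529 with only the days compared, 2898 with the background taken off and 0 with a weight per library (2757 at an unadjusted p under 0.05). These were also 0 in limma without day 4 replicate I or II (6499 and 3437 at an unadjusted p under 0.05), and 505 to 2397 without another library. At day 7 against day 4 they went from 2428 to 3996 with a pseudocount of 0.1, 1015 under quantile normalization, 1609 with no trend, 12786 with voom, 902 with thinning, 3921 with only the days compared, and 0 to 4120 when a library was left out. At day 7 against day 0 they went from 7832 to 2327 under quantile normalization, 4957 with a filter of 5 RPKM, 3624 with thinning, 5220 with the background taken off, and 1173 to 9200 when a library was left out. The all-gene median at day 4 against day 0 moved from -0.40 to -0.28 with median-ratio scaling and to -0.04 under quantile normalization, and that at day 7 against day 0 from -1.14 to -0.95 and -0.16. The rise of Cd9 and Cd63 at day 7 against day 0 passed in all 17. Few reads at day 0, 251 and 77 over the 7 genes in replicate order, limit every comparison with that day. Over all genes tested, the day 0 libraries also agreed less with each other (Pearson r = 0.562) than those of day 4 (0.899) or day 7 (0.976). Day 0 replicate II was closer to day 4 replicates I and II (0.666 and 0.676) than to day 0 replicate III. No paired analysis was possible because the groups compared share fewer than 2 replicate numbers.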
